A study of Mus musculus with 4 samples.

Results

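Paneth cells and inflamed gut epithelium secrete proteins that kill or bind bacteria, and 10 genes for such proteins and their partners were followed here: Lyz1, Itln1, Ang4, Mptx1, Mmp7 and Habp2, which are counted among Paneth and secretory cell genes in the mouse, and the Reg genes Reg1, Reg3b, Reg3g and Reg4. They were chosen by name, with earlier results of these data known. All 10 were on the array, with 11 probes in all, out of 20659 genes that could be named through their RefSeq accessions. Itln1 had a pair of probes and the other 9 genes had 1 probe each, printed in 1 spot. No spot of these genes was marked as an outlier.

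The samples were lamina propria lymphocytes, that is, immune cells freed from the layer below the lining of the gut, of C57BL6 mice on day 10 after they were given dextran sulfate sodium (DSS), a chemical that injures the gut lining and causes colitis. The 4 groups were Stat4-/- mice with DSS and LIF, Stat4-/- mice with DSS, wild type mice with DSS and LIF, and wild type mice with DSS, with 5 mice used per group and 1 array each. They are called the labelled knockout LIF, labelled knockout DSS, wild type LIF and wild type DSS arrays. LIF, leukemia inhibitory factor, is a cytokine that signals through the receptor chain gp130 to STAT3, and Stat4 encodes another transcription factor of the STAT family. Whether RNA of the 5 mice was pooled and how the Stat4 allele was made are not in the labels, and every group had received DSS. Since each group had 1 array, differences could not be set against replicates and have no p-value. The error given beside a value is the scanner software's own estimate for the spot, which covers the array and not the mice.

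Paneth cells sit at the base of the crypts of the small intestine and fill their granules with lysozyme, alpha-defensins and other antimicrobial proteins; the mouse colon normally holds few of them or none. Reg3b and Reg3g encode C-type lectins that enterocytes and Paneth cells release, and their genes are known in the mouse to be switched on by interleukin-22 through STAT3. Reg1 and its neighbour Reg2 are best known as secretory products of the acinar cells of the pancreas.

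The arrays differed in brightness and in how closely they resembled each other. The 75th percentile of the processed signal ran between 23.8 for the wild type LIF array and 122.9 for the wild type DSS array, and levels are therefore given as log2 of the signal over that percentile of the same array. A level of 0 equals the percentile. Levels were compared only within a probe. Over the 12674 probes that were detected on every array, the wild type LIF array correlated with the others at 0.800 to 0.818, whereas the other 3 correlated at 0.951 to 0.980 (Pearson, across probes, which are not independent). The 2 arrays without LIF shared a scan and each array with LIF was scanned separately, so that LIF and scan cannot be told apart. The Stat4 probe read −0.48 and 0.31 on the labelled knockout LIF and DSS arrays, and 0.21 and −0.49 on the wild type LIF and DSS arrays. It did not separate the genotypes, and no source used here says whether it lies in the deleted part. Directions between genotypes therefore rest on the labels.

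The labelled cell type was checked with 11 lymphocyte and leukocyte markers. Of these, 10 were well above background on the labelled knockout LIF array, 11 on the labelled knockout DSS array, 9 on the wild type LIF array and 11 on the wild type DSS array. Cd3e, a chain of the T cell receptor complex, was among them on every array, while Ptprc, the gene of the pan-leukocyte antigen CD45, was not well above background on the wild type LIF array. Epithelial genes were present too, with all 14 intestinal epithelial markers well above background on every array. Most of the antimicrobial genes followed here are known as epithelial genes. Fewer cells of a type and less RNA per cell cannot be told apart in such RNA.

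The promoters of the neighbouring genes Reg3b, Reg3g and Reg1 are shown because these genes lie in one cluster on chromosome 6 and differed in opposite directions in wild type mice, as described below. The windows hold 250 bases before and 50 bases after the annotated start, from RefSeq on GRCm38.p6, and lie at chr6:78370635-78370934 on the plus strand for Reg3b, chr6:78468825-78469124 on the minus strand for Reg3g and chr6:78425733-78426032 on the plus strand for Reg1. Capitals mark matches to the STAT motif TTCNNNGAA, which reads the same on both strands.
Reg3b: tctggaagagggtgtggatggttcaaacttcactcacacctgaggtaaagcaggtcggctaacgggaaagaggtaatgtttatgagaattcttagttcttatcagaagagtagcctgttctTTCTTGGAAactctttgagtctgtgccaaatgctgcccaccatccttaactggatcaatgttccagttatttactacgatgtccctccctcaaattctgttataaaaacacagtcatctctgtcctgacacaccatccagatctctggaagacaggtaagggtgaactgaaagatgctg
Reg3g: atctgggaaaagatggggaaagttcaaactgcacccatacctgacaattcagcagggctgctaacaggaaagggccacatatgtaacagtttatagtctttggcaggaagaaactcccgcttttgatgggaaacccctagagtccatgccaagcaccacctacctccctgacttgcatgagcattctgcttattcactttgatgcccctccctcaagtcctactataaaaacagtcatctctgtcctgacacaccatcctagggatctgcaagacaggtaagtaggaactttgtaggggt
Reg1: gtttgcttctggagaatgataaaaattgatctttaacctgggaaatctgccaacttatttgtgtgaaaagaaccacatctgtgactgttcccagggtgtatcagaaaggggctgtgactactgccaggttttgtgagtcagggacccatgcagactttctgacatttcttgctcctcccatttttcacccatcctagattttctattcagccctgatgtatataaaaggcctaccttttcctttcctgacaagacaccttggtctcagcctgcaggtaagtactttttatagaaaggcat

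The window of Reg3b held 1 STAT match, TTCTTGGAA, whose first base lies 129 bases before the start. Those of Reg3g and Reg1 held none. Among the windows of all 10 genes the only other match was TTCCCTGAA in Ang4, 192 bases before the start. Such a match was present in 8.30% of all 32851 promoter windows. The letters TATAAA, searched on both strands and present in 13.6% of windows, stood on the coding strand 29 bases before the start in Reg3b, 27 in Reg3g and 30 in Reg1. CTTTGAT, a TCF/LEF motif searched on both strands and found in 3.73% of windows, was present in Reg3g and Mmp7. TTGCNNAA, a C/EBP motif found in 10.8% of windows, was present in Lyz1, Habp2 and Mmp7. Aligned end to end, the windows of Reg3b and Reg3g were identical at 68.6% of columns and shared an unbroken run of 29 bases. The other pairs of the 6 genes of the cluster were identical at 46.0% to 56.4% of columns. These matches describe the letters of the windows and not sites in use.

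Among the granule genes, Itln1 varied most. Itln1 encodes intelectin, a lectin that binds sugars of microbial surfaces. Its log2 level was 2.61 ± 0.14 on the labelled knockout LIF array, 3.66 ± 0.14 on the labelled knockout DSS array, 5.09 ± 0.14 on the wild type LIF array and 0.78 ± 0.14 on the wild type DSS array. Wild type mice therefore held both its highest and its lowest level, with the labelled knockout between them. Its other probe read 2.50, 3.6, 4.59 and 0.68 in the same order and kept that ranking.

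Lyz1 encodes the lysozyme of Paneth cell granules, an enzyme that cuts the bacterial cell wall. Its log2 level was 5.12 ± 0.14 on the labelled knockout LIF array, 5.45 ± 0.14 on the labelled knockout DSS array, 6.02 ± 0.14 on the wild type LIF array and 4.45 ± 0.14 on the wild type DSS array. The 4 arrays ranked as they did for Itln1, over a narrower range. Its near copy Lyz2, the lysozyme of macrophages, had another pattern, at −0.16, −0.97, −1.86 and −1.0 in the same order, and was not well above background on the wild type LIF array.

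Ang4, a ribonuclease of the angiogenin family with microbicidal activity, was dim, though well above background throughout, and read −1.37 ± 0.24 on the labelled knockout LIF array, −1.36 ± 0.22 on the labelled knockout DSS array, −0.42 ± 0.20 on the wild type LIF array and −1.90 ± 0.17 on the wild type DSS array. The 2 labelled knockout arrays did not differ beyond the error. The related gene Ang stood at 9.44, 10.37, 0.43 and 9.22 in the same order, so that its lowest value was on the array where Ang4 had its highest.

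Mptx1 encodes a mucosal pentraxin, a secreted protein of the family of C-reactive protein. Its log2 level was 1.82 ± 0.15 on the labelled knockout LIF array, 0.74 ± 0.15 on the labelled knockout DSS array, 2.37 ± 0.15 on the wild type LIF array and 0.88 ± 0.14 on the wild type DSS array. At these levels both arrays with LIF lay above both arrays without it, and the 2 arrays without LIF did not differ beyond the error. With no scaling between arrays the wild type DSS array read highest, at 7.82. The labelled knockout LIF and wild type LIF arrays then read 7.26 and 6.94. With normexp, a background correction described below, the labelled knockout LIF array did not stand above the wild type DSS array.

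Mmp7, the matrix metalloproteinase that cuts alpha-defensin precursors into their active form in mouse Paneth cells, ran differently. Its log2 level was 0.46 ± 0.16 on the labelled knockout LIF array, 1.19 ± 0.15 on the labelled knockout DSS array, −0.80 ± 0.25 on the wild type LIF array and −0.19 ± 0.15 on the wild type DSS array. Both labelled knockout arrays lay above both wild type arrays. Habp2, a secreted serine protease that binds hyaluronan, was well above background on the labelled knockout DSS array and on no other, at −1.79 ± 0.28, and those levels are not read.

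Among the Reg lectins, Reg3b ranked the arrays as Lyz1 did. Its log2 level was 6.93 ± 0.14 on the labelled knockout LIF array, 7.22 ± 0.14 on the labelled knockout DSS array, 8.27 ± 0.14 on the wild type LIF array and 6.67 ± 0.14 on the wild type DSS array. Reg3g, whose product kills Gram-positive bacteria, stood at 4.40 ± 0.14, 4.07 ± 0.14, 4.50 ± 0.14 and 3.26 ± 0.14 in the same order. For both genes the wild type DSS array was lowest and the wild type LIF array highest, although the levels of Reg3g on the 2 arrays with LIF lay within the error of each other.

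Reg1 had the opposite extreme and read 4.16 ± 0.14 on the labelled knockout LIF array, 3.10 ± 0.14 on the labelled knockout DSS array, 0.81 ± 0.16 on the wild type LIF array and 3.25 ± 0.14 on the wild type DSS array. The wild type LIF array stood far below the other 3 arrays. Reg4, a lectin of secretory cells of the colon crypt, was dim, at −0.42 ± 0.18 on the labelled knockout LIF array, −1.77 ± 0.29 on the labelled knockout DSS array and −0.12 ± 0.15 on the wild type DSS array. It was not well above background on the wild type LIF array. The plot of levels by array shows these patterns gene by gene.

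**Figure D1:**
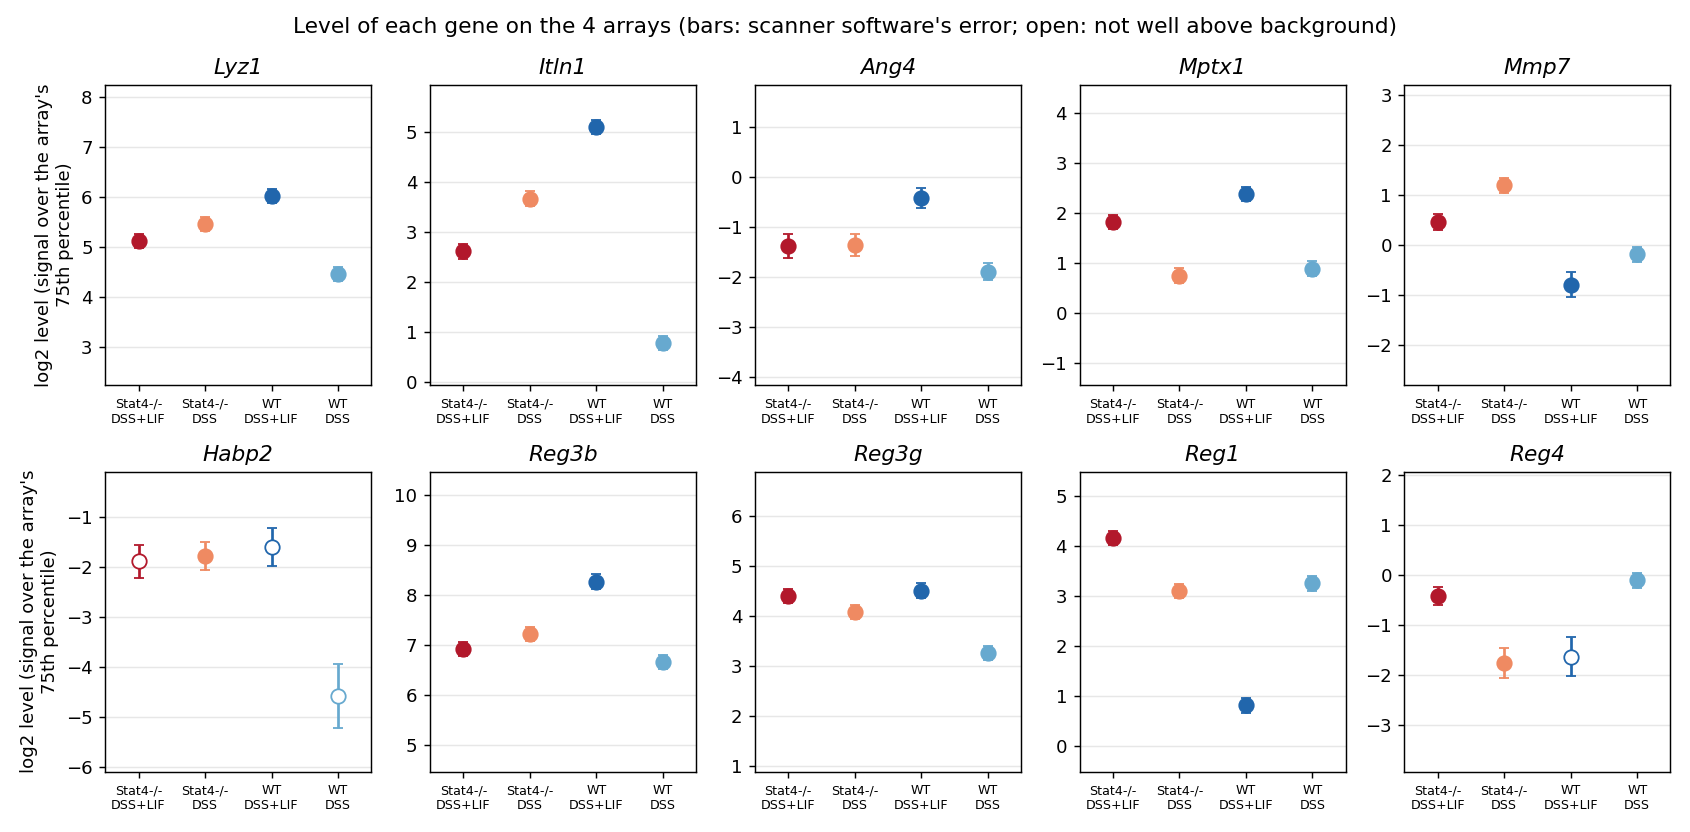
Log2 level (signal over the 75th percentile of the array) of the 10 genes on the 4 arrays, 1 panel per gene with every axis spanning the same range of 6 log2 units; bars are the scanner software's error and open circles are not well above background. Itln1 reads 5.09 on the wild type LIF array and 0.78 on the wild type DSS array, and Reg1 reads 0.81 and 3.25 on the same arrays.

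LIF in wild type mice, the treatment comparison of the study, gave 6 of the 8 measured genes a level at least 2-fold higher with LIF and 1 at least 2-fold lower. Among all 8983 measured genes, 34.4% passed the same mark upwards and 13.7% downwards, and the median gene was 0.57 higher in log2 units, so that much of the array lay on the same side. Itln1 was 19.9-fold higher (log2 difference 4.32 ± 0.20), above 99.4% of measured genes. The second probe of Itln1 gave 3.91. Reg3b was 3.04-fold, Lyz1 2.96-fold, Mptx1 2.81-fold, Ang4 2.78-fold and Reg3g 2.36-fold higher, all between the 5th and 95th percentile of measured genes, and all 5 below 0 with no scaling between arrays, where the median gene was at −1.80. Above the median of all genes these differences were 1.03 for Reg3b, 0.99 for Lyz1, 0.92 for Mptx1, 0.90 for Ang4 and 0.67 for Reg3g. Reg1 was 5.42-fold lower (log2 difference −2.44 ± 0.21), with 3.08% of genes below it. Mmp7 was 0.61 ± 0.29 lower in log2 units and did not reach 2-fold.

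The remaining pair of genes gave no measured difference. Reg4 was at least 2.60-fold lower with LIF in wild type, a bound set by the dimmest signal above background there. Bounds ran unevenly, with 253 genes bounded higher and 1465 lower in this comparison. Habp2 was below that mark on both arrays and has no fold. Before scaling, Itln1 was the one of the 8 measured genes whose processed signal was brighter with LIF, at 812 on the wild type LIF array against 211 on the wild type DSS array. For Reg3b the unscaled signals were 7361 and 12518, and for Lyz1 1538 and 2686. With normexp (offset 50), a background correction run on the median instead of the processed signal, 1 of the 8 genes passed 2-fold upwards, beside 8.88% of all genes. This was Itln1, at a log2 difference of 2.78, while Reg1 was at −2.35.

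LIF in the labelled knockout, which does not involve the array that stood apart, gave smaller differences. Of 9 measured genes 3 passed 2-fold upwards and 1 downwards, where 3.22% and 3.07% of all 9781 measured genes were. Reg4 was 2.54-fold higher (log2 difference 1.35 ± 0.34), above 99.0% of genes. Mptx1 was 2.11-fold (1.08 ± 0.21) and Reg1 2.08-fold higher (1.06 ± 0.20), just past the threshold. With normexp without an offset Mptx1 was at 0.085 and Reg1 at −0.18. Itln1 was 2.08-fold lower (−1.05 ± 0.20), with 2.73% of genes below it. The log2 differences were −0.73 ± 0.22 for Mmp7, −0.34 ± 0.20 for Lyz1, −0.29 ± 0.20 for Reg3b, 0.32 ± 0.20 for Reg3g and −0.01 ± 0.33 for Ang4. Habp2 was not well above background with LIF. Its bound of 1.07-fold lower lay within the error of the spots (0.33 with LIF and 0.28 without), so no direction is read. With normexp (offset 50) on the median signal, 0 genes passed 2-fold upwards and 3 downwards, beside 0.0614% and 8.90% of all genes. The 3 were Itln1 at −1.53, Reg3b at −1.22 and Lyz1 at −1.15. Reg4 was then at 0.56, and at 1.42 with normexp without an offset.

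Labelled knockout against wild type under DSS, the comparison of genotypes within a single scan, also left out the array that stood apart. In the labelled knockout 3 of 9 measured genes passed 2-fold upwards and 1 downwards, where 13.2% and 6.94% of all 10529 measured genes were. Itln1 was 7.40-fold higher (log2 difference 2.89 ± 0.20), above 99.6% of genes. Mmp7 was 2.61-fold (1.38 ± 0.21) and Lyz1 2.00-fold higher (1.00 ± 0.20). Lyz1 lay at the threshold itself, and with no scaling between arrays, where the median gene was at −1.37, Lyz1 was at −0.44 and Mmp7 at −0.058. With normexp (offset 50) Lyz1 was at 0.39 and Mmp7 at 0.73, which left Itln1 past it, beside 3.19% of all genes. Reg4 was 3.14-fold lower (−1.65 ± 0.33), with 1.12% of genes below it, or −0.42 with normexp (offset 50). Among the others, Reg3g was 0.81 ± 0.20, Reg3b 0.55 ± 0.20 and Ang4 0.54 ± 0.28 higher in log2 units. Mptx1 (−0.14 ± 0.21) and Reg1 (−0.15 ± 0.20) differed by less than the error. Habp2 was at least 4.00-fold higher by its bound, which depends on the scaling. Its unscaled signals were 13.1 on the labelled knockout DSS array and 5.10 on the wild type DSS array.

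Under DSS and LIF the genotypes differed in the other direction for Itln1. Each array with LIF had its own scan, so genotype and scan cannot be told apart here. The comparison also uses the wild type LIF array, which stood apart. In the labelled knockout 2 of 8 measured genes passed 2-fold upwards and 2 downwards, against 14.2% and 31.3% of all 8348 measured genes, whose median was −0.45. Reg1 was 10.2-fold higher (log2 difference 3.34 ± 0.21), above 97.4% of genes, and Mmp7 was 2.39-fold higher (1.26 ± 0.30). With normexp (offset 50) these were 1.91 and 0.21. Itln1 was 5.60-fold lower (−2.48 ± 0.20) and Reg3b 2.54-fold lower (−1.34 ± 0.20). The log2 differences of Ang4 (−0.95 ± 0.31), Lyz1 (−0.90 ± 0.20), Mptx1 (−0.55 ± 0.21) and Reg3g (−0.10 ± 0.20) lay within 1 of 0. Reg4 was at least 2.10-fold higher by its bound. Habp2 was below background on both arrays. The plot of log2 differences sets each gene against the spread of all measured genes.

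**Figure D2:**
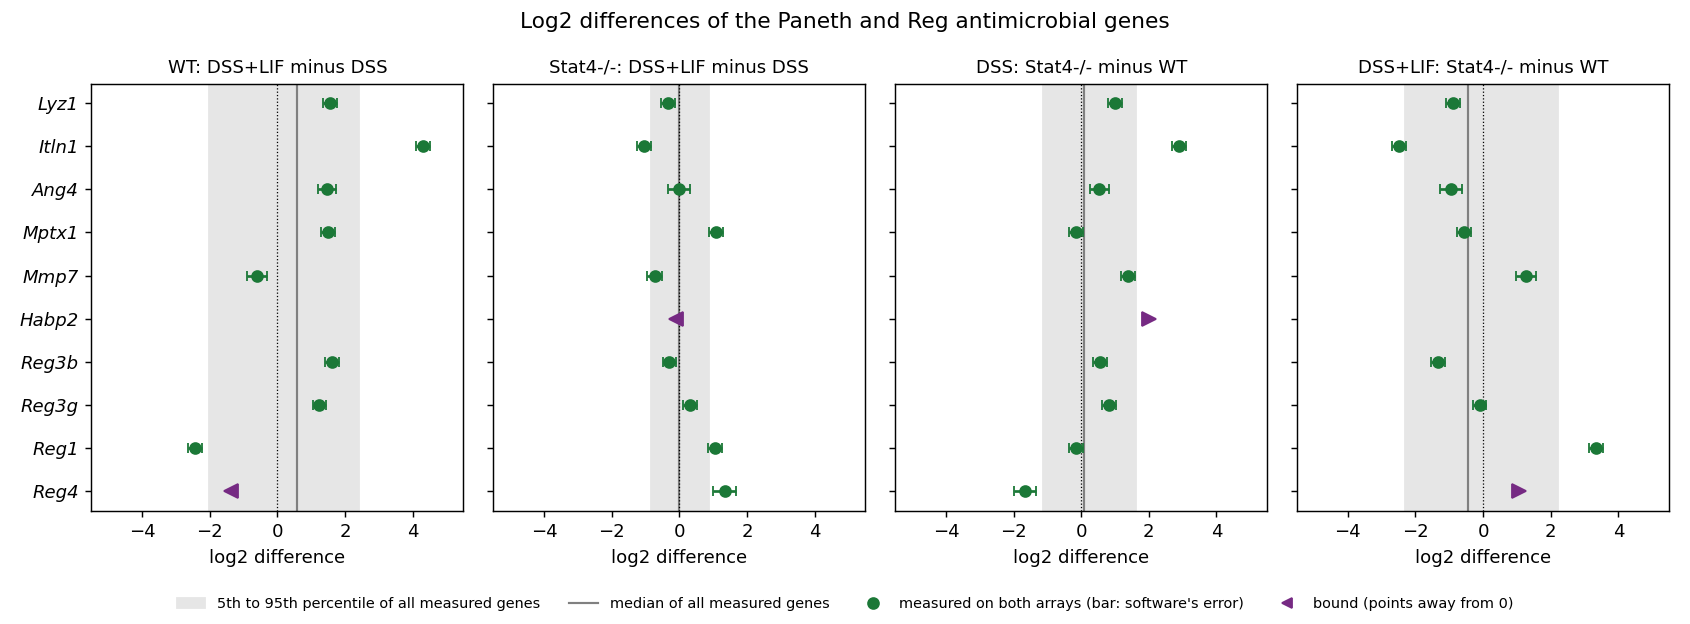
Log2 differences of the 10 genes in the 4 comparisons, with circles for measured genes, bars for the scanner software's error, triangles for bounds that point away from 0, grey bands for the 5th to 95th percentile of all measured genes and a grey line for their median. Itln1 lies outside the band in all 4 panels, at 4.32, −1.05, 2.89 and −2.48 from left to right, and Reg1 in 3 of them.

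For some of these genes the LIF differences of the 2 genotypes lay far apart. Of the 8 genes with a measured value on every array, 4 had a LIF difference that was lower by 1 log2 unit or more in the labelled knockout, set against wild type, and 1 had a higher one, where 33.4% and 16.7% of 8039 genes were. The difference of the differences was −5.37 for Itln1, which 0.361% of genes lay below, and 3.49 for Reg1, with 98.2% of genes below it. It was −1.90 for both Lyz1 and Reg3b and −1.49 for Ang4. For Reg3g (−0.92), Mptx1 (−0.41) and Mmp7 (−0.12) it was under 1 in size. These values carry the array that stood apart and were not tested.

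The genes of the Reg cluster did not vary together. They lie along chromosome 6 in the order Reg3b, Reg3d, Reg3a, Reg2, Reg1 and Reg3g. The outermost genes Reg3b and Reg3g were the ones with higher levels with LIF in wild type, although with normexp (offset 50) Reg3b was at 0.34 and Reg3g at 0.0076, and with no scaling between arrays both were below 0. Of the inner ones, Reg1, Reg2 and Reg3d were lower. Reg2 had log2 levels of 5.34 and 4.55 on the labelled knockout LIF and DSS arrays, and 1.46 and 4.25 on the wild type LIF and DSS arrays, which made it 6.92-fold lower with LIF in wild type. Reg3d read 3.00, 2.37, −0.07 and 1.78 in the same order and was 3.61-fold lower. The spot of Reg3a on the wild type LIF array was marked as an outlier and left out. In the labelled knockout the log2 differences with LIF were 0.79 for Reg2, 0.63 for Reg3d and 0.41 for Reg3a, on the same side as the 1.06 of Reg1.

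**Figure D3:**
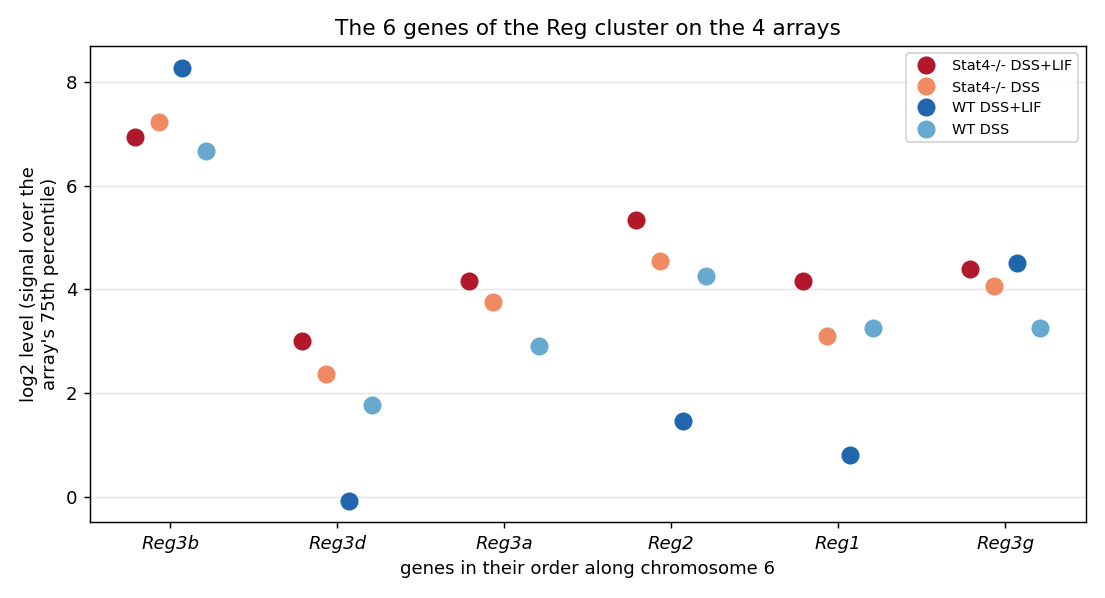
Log2 levels of the 6 genes of the Reg cluster on the 4 arrays, in their order along chromosome 6; levels are to be read within a gene, and Reg3a has no point for the wild type LIF array because its spot was marked as an outlier. On the wild type LIF array Reg1, Reg2 and Reg3d read 0.81, 1.46 and −0.07, below their other arrays, while Reg3b reads 8.27, above its other arrays.

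At the reported levels, markers of pancreatic acinar cells had their highest and lowest summed signals on the same arrays as Reg1, but single markers differed from it. Under both normexp settings and with no scaling between arrays, Reg1 was highest on the wild type DSS array. The sums were not made in those settings. Of 14 acinar markers, 13 were well above background on the labelled knockout LIF array, 11 on the labelled knockout DSS array, 9 on the wild type LIF array and 14 on the wild type DSS array. Their summed signal, in units of the 75th percentile of the array, was 780, 254, 81.4 and 197 in the same order. Whether above background or not, 13 of the 14 read highest on the labelled knockout LIF array and 9 read lowest on the wild type LIF array. The shares of all genes that did so were not counted. With LIF in wild type 5 of 9 measured markers passed 2-fold on the lower side, as Reg1 did, and 3 on the higher side, Clps, Cel and Ctrb1. Of all measured genes 13.7% were lower and 34.4% higher. The median of the markers was −1.42. With LIF in the labelled knockout 9 of 11 markers were higher and 1 was lower, beside 3.22% and 3.07% of all genes. The markers' median was 1.69. Under DSS 4 of 11 markers were higher and 0 lower in the labelled knockout, beside 13.2% and 6.94% of all genes. The markers' median was 0.52, where Reg1 was at −0.15. Under DSS and LIF 8 of 9 markers were higher and 0 lower, beside 14.2% and 31.3% of all genes, and the markers' median was 3.38. The trypsinogen gene Prss1 was at least 7.83-fold lower with LIF in wild type and 3.88-fold higher with LIF in the labelled knockout. The part of acinar RNA in the level of Reg1 was not tested.

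The alpha-defensins, the other products of Paneth cell granules, had their highest and lowest levels on the same arrays as Itln1, over a far wider range. Of 17 listed genes 12, 12, 13 and 11 were well above background on the labelled knockout LIF, labelled knockout DSS, wild type LIF and wild type DSS arrays, and their summed signals were 472, 615, 3305 and 13.5. All 11 measured alpha-defensins were at least 2-fold higher with LIF in wild type, where 34.4% of all measured genes were. Defa-ps1, among the 11 at 7.62, is named as a pseudogene. So are Defa-ps12 and Defa-ps13, which were listed but not measured. The median log2 difference of the alpha-defensins was 7.79, beside 4.32 for Itln1, 1.56 for Lyz1, 1.47 for Ang4 and −0.61 for Mmp7. Under DSS their median in the labelled knockout was 5.55 above wild type, beside 2.89 for Itln1 and 1.00 for Lyz1. The alpha-defensins are near copies of each other, so that probes may share targets.

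Summed signals of other immune cell and stromal markers ranked the arrays in several ways. That of neutrophil genes ranked them as Mmp7 did, though not once S100a8 was left out. That of macrophage genes ranked them as Reg3g did. The summed signal of 8 neutrophil genes was 1987, 2481, 317 and 446 on the labelled knockout LIF, labelled knockout DSS, wild type LIF and wild type DSS arrays. S100a8 made up 69.3% of it on the labelled knockout DSS array. Without S100a8 it was 836, 761, 136 and 199. Whether above background or not, 6 of the 8 genes read highest on the labelled knockout LIF array. For Mmp7 that array was second to the labelled knockout DSS array. Among the 6, Cxcr2 and Ltf were not well above background on any array. The share of all genes that read highest on the labelled knockout LIF array was not counted. S100a9 (9.42 and 9.36) and Mmp8 (2.55 and 2.51) were close on the labelled knockout LIF and DSS arrays. The summed signal of 6 stromal genes was 8.34, 13.3, 3.63 and 3.52 in the same order of the 4 arrays. That of 5 macrophage genes was 24.5, 21.6, 36.8 and 20.9, and Itgam made up 47.6% of it on the wild type LIF array. The 11 lymphocyte and leukocyte genes summed to 20.7, 24.7, 42.8 and 28.5. The part of these cells in the level of Mmp7 or the other genes was not tested.

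The summed signals of epithelial and goblet cell markers were highest on the wild type LIF array, though not those of every marker. The 14 epithelial markers had summed signals of 202 and 212 on the labelled knockout LIF and DSS arrays, and of 319 and 193 on the wild type LIF and DSS arrays. Lgals4, a galectin of the gut epithelium, made up 73.2% of the sum on the wild type LIF array, and without it the sums were 65.9, 52.2, 85.4 and 67.1. On the wild type LIF array 8 of the 14 read highest, and 3, Epcam and the keratin genes Krt8 and Krt19, read lowest. How many of all genes read highest or lowest there was not counted. The median of the 14 markers with LIF in wild type was 0.42. At least 2-fold differences were seen upwards for 2 and downwards for 3 of them, beside 34.4% and 13.7% of all measured genes. Epcam, an adhesion molecule of all gut epithelium, was lower by 2.64 in log2 units. The 7 goblet cell markers on the array had summed signals of 114, 96.9, 320.5 and 95.5 in the same order. With LIF in wild type their median difference was 1.95 and 4 of them were at least 2-fold higher, beside 34.4% of all genes. The part of epithelial or goblet cell RNA in the levels of the antimicrobial genes was not tested.

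A list of 16 genes, meant for the Paneth and wider secretory lineage, was counted. Tff3, Agr2 and Spdef are also among the goblet cell markers. Tcf4 encodes a transcription factor of the E protein family and not the Wnt pathway factor of the same name. It is no marker of this lineage, although the counts and medians of the list include it. With LIF in wild type 15 were measured, and 5 of these passed 2-fold upwards and 0 downwards. Of all measured genes 34.4% and 13.7% did. The 5 were Atoh1, Nod2, Tcf4, Kit and, highest at 3.19, the goblet cell product Tff3. The median of the 15 was 0.53, beside 0.57 for all genes. With LIF in the labelled knockout 2 of 14 measured genes passed 2-fold upwards and 0 downwards, beside 3.22% and 3.07% of all genes. The 2 were Atoh1 and Nod2. The median of the list was 0.22, and Tcf4 (−0.52), Tff3 (−0.51) and Dll4 (−0.48) were lowest. Atoh1, the transcription factor of the secretory lineage, was 1.25 higher in log2 units with LIF in the labelled knockout and 1.63 higher in wild type. The bacterial sensor gene Nod2 was 1.23 higher in the labelled knockout and 1.25 higher in wild type. Under DSS 2 of 15 were higher and 4 lower in the labelled knockout, beside 13.2% and 6.94% of all genes. The higher ones were Dll4 at 2.41 and Tff3 at 1.18. The lower ones were Atoh1 at −1.76, Gfi1 at −1.25, Nod2 at −1.10 and Spdef at −1.09. Sox9, a transcription factor that Paneth cells need, was at 0.17.

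Further antimicrobial genes, 13 of 18 listed ones being on the array under those names, were counted in the same way. With LIF in wild type 2 of 11 measured passed 2-fold upwards, Ang2 and the chemokine gene Ccl28, and 4 downwards, Ang, Reg2, Reg3d and Lypd8. Of all measured genes 34.4% were higher and 13.7% lower. The median of the list was 0.19. Retnlb, a goblet cell protein with bactericidal activity, was at 0.63. Under DSS 3 of 12 were higher and 1 lower in the labelled knockout, beside 13.2% and 6.94% of all genes. Highest was Lcn2, the iron-binding protein lipocalin, at 2.03. Pigr, the receptor that carries IgA across the epithelium, was 2.17-fold higher there. In the interleukin-22 and STAT3 list, only 4 of 14 genes were measured with LIF in wild type, with 0 higher and 1 lower, which was Lif itself at −2.08. Stat3 was at −0.07 and its feedback inhibitor Socs3 at 0.23. Under DSS 2 of 6 were higher and 0 lower in the labelled knockout, namely Lif at 2.09 and Socs3 at 1.35, with Stat3 at 0.94. Il22 and its receptor gene Il22ra1 carried the mark for well above background on the wild type DSS array and on no other, but that array had 61.7% of probes so marked, where the others had 37.6% to 45.7%. Il22 read −2.81 on the labelled knockout LIF array and −2.76 on the wild type DSS array.

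Patterns over the 4 arrays were compared after each gene's mean was taken off, by the root mean square distance in log2 units, as a description of these arrays. Among the 8 genes measured on all arrays the closest pair was Ang4 and Reg3b (0.14), followed by Lyz1 and Ang4 (0.17) and Lyz1 and Reg3b (0.22). Itln1 and Reg1 were farthest apart (2.60). The pair Reg3b and Reg3g stood at 0.45. Among 7758 other named genes the nearest to Itln1 was the beta-defensin gene Defb50, at 0.23, followed by Nanog at 0.41 and Adgrb1 at 0.42, where the median gene was 1.46 away. Nearest to Reg1 were Tfrc (0.087), Acsm3 (0.12) and Pcdhga9 (0.12). Mmp7 was nearest to Apoe (0.065), Xrcc1 (0.073) and the acute-phase gene Saa1 (0.075). Lyz1 was nearest to Sumf2 (0.042), Reg3b to Rusc1 (0.040), Ang4 to Gstz1 (0.022), Mptx1 to Hao2 (0.084) and Reg3g to Med26 (0.013).

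Over 10 alternative ways of processing, the differences of Itln1 kept their direction and a size of at least 2-fold in all 4 comparisons. Those of Reg1 did so with LIF in wild type and between genotypes under DSS and LIF. Itln1 was highest on the wild type LIF array and lowest on the wild type DSS array in all 11 settings. Reg1 was lowest on the wild type LIF array in all 11, but highest on the labelled knockout LIF array in 8 and on the wild type DSS array in 3. Lyz1, Reg3b and Reg3g were each lowest on the wild type DSS array in 8 of 11. Lyz1 and Reg3b were highest on the wild type LIF array in 10 of 11, and Reg3g in 8. Some of these settings were no separate check. For Itln1, the settings with no background filter, with outlier spots kept and with only probes detected on every array returned the reported differences. For Reg1, these settings and the mean over probes did the same. The plot of LIF differences by setting shows that Lyz1, Ang4, Mptx1, Reg3b and Reg3g lay below 0 in wild type when arrays were not scaled to each other.

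**Figure D4:**
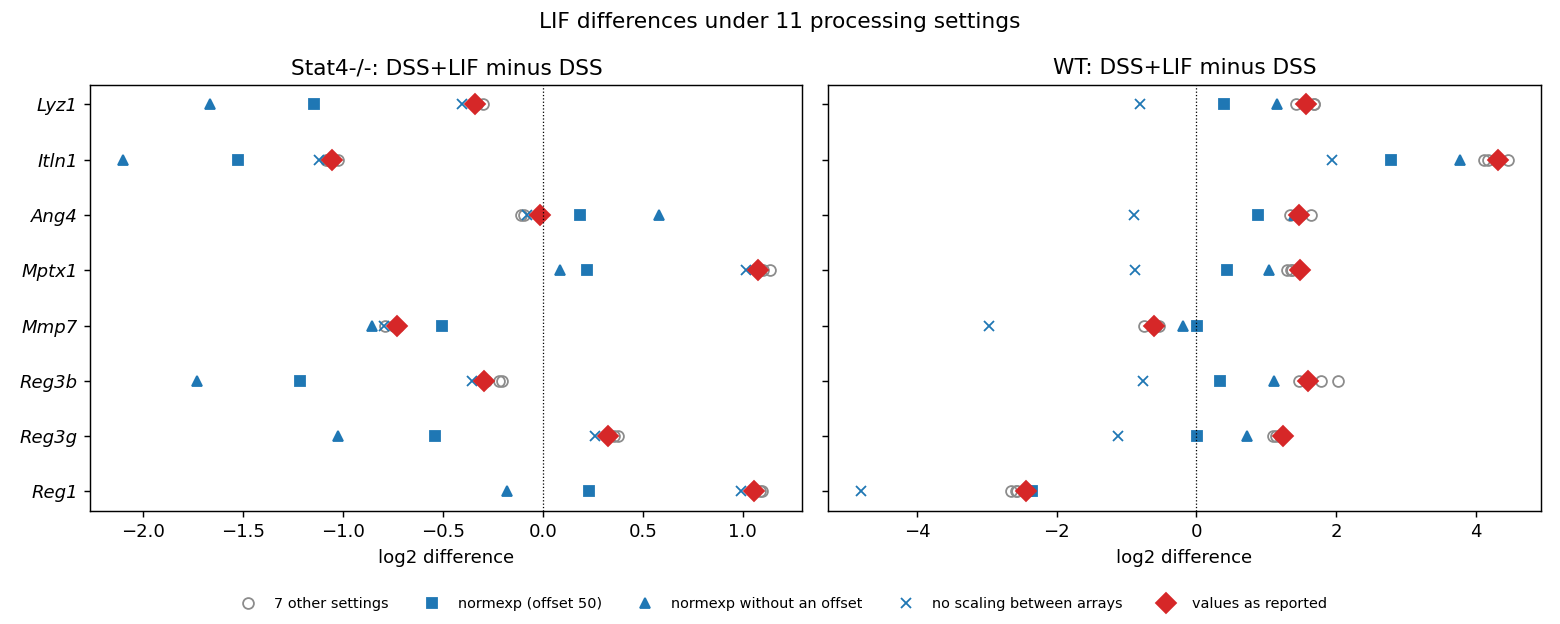
Log2 LIF differences of the 8 genes measured on all 4 arrays under 11 processing settings, in the labelled knockout on the left and in wild type on the right, whose axes span different ranges; red diamonds are the values reported and other symbols the alternatives. In wild type Itln1 lies between 1.95 and 4.46 and Reg1 between −4.81 and −2.35, while Reg3b ranges between −0.77 and 2.02.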

How the data were processed

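Gene expression was measured on 4 one-colour (Cy3) Agilent arrays. The scanner files hold intensity values that the authors made with Agilent Feature Extraction, for which the file headers give release 11.0.1.1 and the submitters' processing notes 9.1. The authors also deposited normalized log2 values of the same arrays, used as an alternative. No source used here states how these were normalized. The marks for well above background, saturated and outlier spots are other values per spot, deposited by the authors in the scanner files. Log2 processed signals were taken minus the 75th percentile of each array, outlier spots were left out and spots of a probe averaged. At least 50% of a probe's spots had to carry the first mark for it to be taken as above background, and no probe was saturated. Probes were named through RefSeq accessions (27234 of 39429) with a table of assembly GRCm38.p6, used for names and gene order, and the probe with the highest mean stood for a gene. A gene below background on 1 array received a bound, found by subtracting from the bright value either the dim probe's own or the lowest one well above background on that array, whichever was higher. Differences were counted at a log2 size of at least 1, with no test, since no group has a replicate. The number of arrays limits the precision.

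All 10 genes were named, as were members of the companion lists and the 3 nearest genes of a pattern, clone and receptor segment names left out. From the companion lists the text names a part. The genes and lists were chosen with earlier results of these data known. The counting steps were tested on simulated data. Alternatives were normexp (limma 3.58.1, offset 50) on the median signal, the mean signal being not used here, quantile scaling, scaling to the median of the probes detected on every array, no background filter, those probes alone, the mean over probes, the authors' table, and outlier spots kept. Normexp without an offset and no scaling between arrays were chosen after seeing the data. Python 3.11.15, pandas 2.3.3 and Biopython 1.88 were used.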

Additional observations from a re-analysis of the deposited data

Results flagged for a closer look

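In 5 of the 8 genes measured on all 4 arrays the LIF difference had opposite signs in the labelled knockout and in wild type. The share of all genes with opposite signs was not counted. The median of all measured genes was at −0.0093 with LIF in the labelled knockout and at 0.57 in wild type. The LIF log2 difference in the labelled knockout minus that in wild type was −5.37 for Itln1 (−1.05 in the labelled knockout and 4.32 in wild type) and 3.49 for Reg1 (1.06 and −2.44). It was −1.90 for Lyz1 (−0.34 and 1.56), −1.90 for Reg3b (−0.29 and 1.60) and −1.49 for Ang4 (−0.01 and 1.47). The value of Ang4 in the labelled knockout lies within the error of 0. With no scaling between arrays the signs were the same in both genotypes for Lyz1, Reg3b and Ang4. Lyz1 was then at −0.40 in the labelled knockout and −0.80 in wild type, Reg3b at −0.36 and −0.77, and Ang4 at −0.08 and −0.90. With 1 array per group the difference between genotypes was not tested.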

How the results depend on the processing

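Reported counts of the 8 or 9 measured genes at least 2-fold higher or lower differed under normexp, which changed the background correction and the signal column (median in place of processed) together, so that the 2 cannot be told apart. With normexp (offset 50) the count of higher genes became 1 in place of 6 with LIF in wild type, 0 in place of 3 with LIF in the labelled knockout, 1 in place of 3 between genotypes under DSS and 1 in place of 2 under DSS and LIF. Lower genes became 3 in place of 1 with LIF in the labelled knockout and 0 in place of 1 between genotypes under DSS. Among all genes, 8.88% were then higher with LIF in wild type, 0.0614% higher and 8.90% lower with LIF in the labelled knockout, 3.19% higher and 7.83% lower under DSS, and 5.28% higher under DSS and LIF. Normexp without an offset gave 1 higher and 4 lower with LIF in the labelled knockout, and 1 higher and 5 lower between genotypes under DSS and LIF, where 24.2% and 34.1% of all genes were lower and 4.34% and 5.46% higher. The log2 difference of Reg1 with LIF in the labelled knockout then turned to −0.18.

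With no scaling between arrays, 1 gene was higher and 3 were lower both with LIF in wild type and between genotypes under DSS, and 1 was lower between genotypes under DSS and LIF. Of all genes 76.7%, 68.9% and 10.7% were lower in these 3 comparisons, and 1.56% and 0.864% higher in the first 2. With LIF in wild type the log2 differences turned to −0.80 for Lyz1, −0.90 for Ang4, −0.88 for Mptx1, −0.77 for Reg3b and −1.13 for Reg3g. Between genotypes under DSS they turned to −0.44 for Lyz1 and −0.058 for Mmp7. This setting leaves in the brightness of whole arrays, whose 75th percentiles ran between 23.8 and 122.9. With no background filter 2 genes were lower with LIF in wild type, and with the probes detected on every array alone 0 were lower between genotypes under DSS, because Reg4 was then not measured.

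Over single genes and all alternatives, 257 values moved by less than the software's error, 73 by more and 8 changed sign from a difference of at least 2-fold. Many of the 257 could not move. For genes with 1 probe, no background filter, the mean over probes and outlier spots kept return the reported value. The probes detected on every array alone also return it where the gene is measured. The count of 257 is therefore not a measure of stability. The cause of the normexp shifts was not tested. No paired analysis was possible because each group has 1 array. Dim signals limit Ang4, Habp2 and Reg4.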
